A study of Mus musculus with 9 samples.

Results

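Members of the AP-1 transcription factor family and other immediate early genes were examined in endothelial cells (ECs) sorted from mouse lungs. The 10 genes were Fos, Fosb, Fosl2, Jun, Junb, Jund, Egr1, Atf3, Ier2 and Ier3. Every probe set whose annotation names one of these genes alone was taken, which gave 13 probe sets of the 34945 that name 1 gene, and 10 genes of 18193. Fosl2, Jun and Jund had 2 probe sets each and the other 7 genes had 1. The probe sets were taken by gene name and not by measured value, but the genes were chosen with earlier results of these data known.

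The arrays fell into 3 groups of 3 biological replicates, all from NSG mice, a strain without functional lymphocytes that accepts human tumors. In the metastasis anti-VEGF group, mice of 6 to 8 weeks had received MDA-MB-231-LM2 cells, a lung-seeking derivative of a human breast cancer line, by tail vein, and were given repeated intraperitoneal injections of B20.4.1.1 (B20, an antibody against VEGFA) at 10 mg per kg. The metastasis IgG group carried the same cells and received control IgG, and the lungs of both metastasis groups were taken on day 21. The healthy IgG group consisted of age-matched mice without cancer cells that received control IgG. The study chose metastatic mice of comparable bioluminescence, so both metastasis groups represent lungs of similar tumor load, and the whole lung, not the nodule, was the source. Lungs were digested warm with collagenase and dispase before sorting, in all 3 groups, and ECs were sorted by CD31 after exclusion of cells with GFP, CD140b, CD140a, CD326, CD11b or CD45 on flow cytometry. Undigested lung was not analysed here.

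Immediate early genes are transcribed within minutes of a stimulus without new protein synthesis, from promoters that hold preformed factors such as SRF with its ternary complex partners and CREB. AP-1 is a dimer of basic leucine zipper proteins, in which FOS proteins pair with JUN proteins, while JUN proteins can also pair with each other or with ATF proteins. In endothelium the system answers growth factors, cytokines and flow, and it is also known to be induced by enzymatic dissociation of tissue.

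The promoters of the FOS family are shown because its members Fosb and Fosl2 were the 2 of the 10 that passed the test in a comparison of genes, and Fos is the founding member. The stretches are from RefSeq on GRCm38.p6 and run 5′ to 3′ on the strand of the gene. Those of Fos (chr12:85473790-85473889, plus strand) and Fosl2 (chr5:32136372-32136471, plus strand) are the last 100 bases before the annotated start. That of Fosb (chr7:19310076-19310105, minus strand) covers bases 60 to 31 before its start. Capitals mark TGACGT, the core of the cyclic AMP response element, and TATAAA in Fos, and GCGGGGGCG, the binding sequence of EGR proteins, in Fosb and Fosl2.
Fos: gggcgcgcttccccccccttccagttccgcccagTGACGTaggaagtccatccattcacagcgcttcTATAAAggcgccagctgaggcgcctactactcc
Fosl2: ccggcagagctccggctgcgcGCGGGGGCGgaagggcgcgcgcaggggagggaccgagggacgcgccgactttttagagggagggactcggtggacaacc
Fosb: tgacgcaagcGCGGGGGCGggtcccggagg

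Promoter sequence was at hand for 8 of the 10 members, all but Egr1 and Ier2, and both strands of the 250 bases before each start were searched. GCGGGGGCG occurred in 2 of the 8 (Fosb and Fosl2), against 2.57% of 32851 promoters. TGACGT occurred in Fos and Atf3, against 6.47% of promoters, and TATAAA in Fos, against 12.4%. CCAAT was present in Jun, Junb and Ier3, against 33.8% of promoters. The AP-1 sequence TGANTCA (6.75% of promoters), the full response element TGACGTCA (1.55%), which contains TGACGT, and the CArG box bound by SRF (1.47%) were found in 0 of the 8 windows. A match describes the letters only. Bases further than 250 before a start and inexact matches were not searched, so a count of 0 covers these windows only.

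The deposited values are log2 intensities normalized by RMA, a method that puts all arrays on a common distribution, and the array medians all rounded to 8.31. A change is a difference of group means in log2 units, given with its standard error (SE), and the test was that of limma on the 6 arrays of a comparison with Benjamini-Hochberg adjustment over all 18193 genes, each represented by its brightest probe set. All 10 members had a main probe set at 10.97 or above in all 9 arrays, within a range of 5.38 to 14.8 over the table. The lowest correlation between 2 arrays of a group was 0.991. In sorted cells measured in bulk, a change in the share of cells that express a gene and a change in RNA per cell cannot be told apart.

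Fosb was lower in metastasis IgG than in healthy IgG ECs, at 0.742 times its healthy level. It was the 1 member of 10 with an adjusted p under 0.05, a share near the 9.01% of all genes that passed. Of the other 9 members, 8 differed from healthy ECs by 0.26 log2 units or less. The highest change was that of Fosl2, at 1.23 times the healthy level, which did not pass. The other 8 members had changes between -0.26 (Jund) and 0.06 (Atf3). The arrays of both groups did not overlap for 4 members (Fosl2 higher, Fosb, Jund and Egr1 lower), against 29.1% of all genes. An unadjusted p under 0.05 was reached by 4 members, against 23.3% of all genes. The median change was -0.05 over the members and -0.0011 over all genes. With each probe set tested on its own, 0 of 13 passed and 3 had an unadjusted p under 0.05, against 7.41% of all probe sets that passed and 21.9% with such a p. The smallest adjusted p among the 13 was then 0.0517, that of Fosb.

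Set against healthy IgG ECs, metastasis anti-VEGF ECs had a higher level of Fosl2, at 1.33 times the healthy level, the 1 member of 10 that passed (adjusted p = 0.0398), where 6.44% of all genes did. Fosb was at 0.810 times its healthy level with an adjusted p of 0.0521. The arrays did not overlap for 7 members, against 26.9% of all genes, with Fosl2, Junb, Atf3 and Ier2 higher and Fosb, Jund and Ier3 lower. An unadjusted p under 0.05 was reached by 6 members, against 21.2% of all genes. The median change was 0.02 over the members and -0.0079 over all genes, so the shifts ran both ways. Among single probe sets 1 of 13 passed, the main one of Fosl2 (adjusted p = 0.0489), against 5.41% of all. This comparison and the previous one share the 3 healthy arrays, so their values are not independent.

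The direct comparison of metastasis anti-VEGF with metastasis IgG ECs gave changes between -0.20 (Ier3) and 0.17 (Ier2) log2 units. By limma 0 members passed, as did 0 of all 18193 genes (0%), and an unadjusted p under 0.05 was reached by 0 members, against 1462 genes (8.04%). Of the 10 members, 9 had a change above 0, against 48.3% of all genes, and the median change was 0.12, against -0.0060 over all genes. The arrays did not overlap for 4 members, Junb, Egr1 and Ier2 (higher) and Ier3 (lower), against 13.1% of all genes. The bound of a member's 95% interval that lay furthest from 0 was -0.43 (Ier3), and the widest interval was that of Fosb, from -0.13 to 0.38. Leaving out any 1 of the 6 arrays left the count of members that passed at 0.

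**Figure D1:**
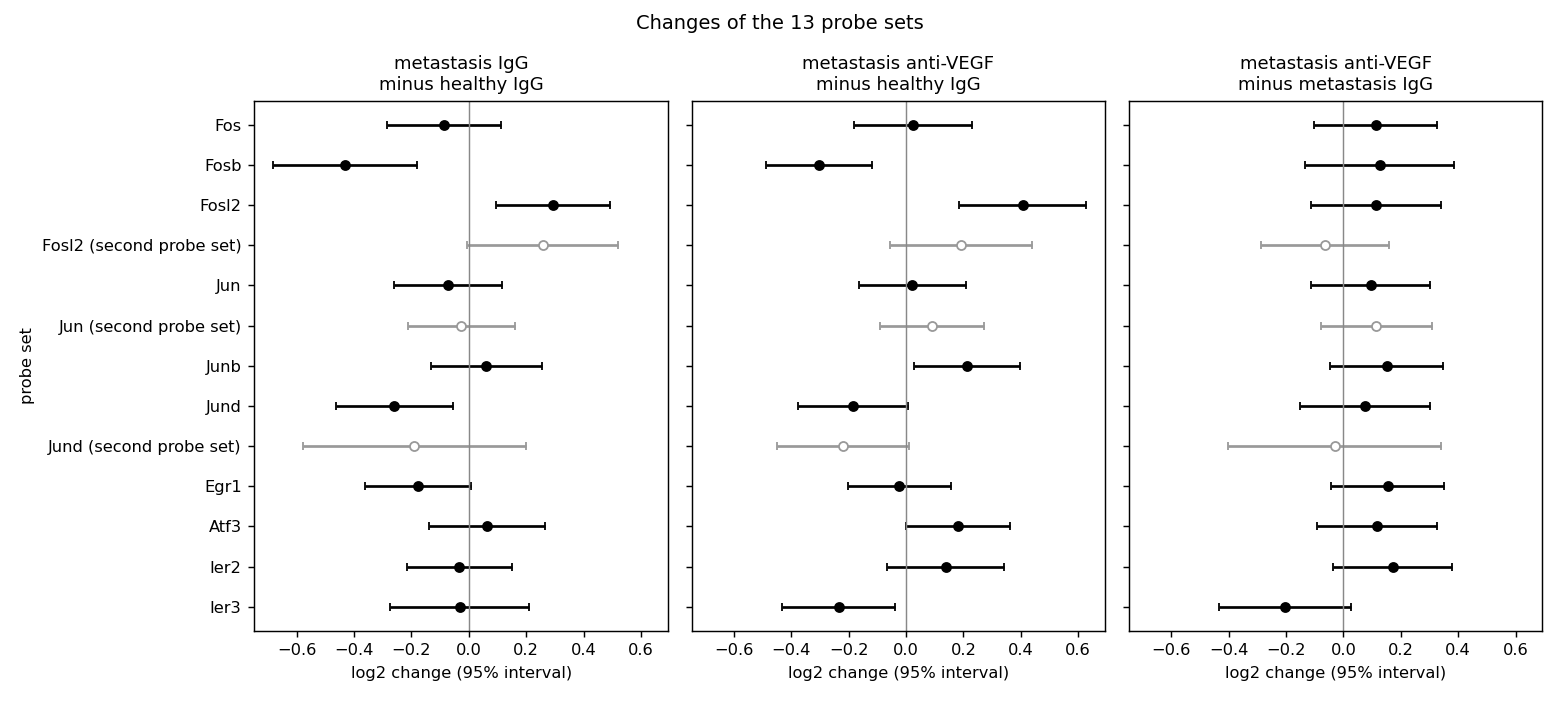
Log2 change (x axis) of each of the 13 probe sets (rows) with its 95% interval from limma, in the 3 comparisons (panels). Filled symbols are the probe sets that represent their genes and open symbols the second probe sets. Fosb lies at -0.43 in metastasis IgG minus healthy IgG and Fosl2 at 0.41 in metastasis anti-VEGF minus healthy IgG, and all 13 intervals include 0 in metastasis anti-VEGF minus metastasis IgG.

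The FOS family holds the partners that cannot form AP-1 without a JUN or related protein. In it, Fosb was lower and Fosl2 higher in both metastasis groups than in healthy ECs. Fosb passed under IgG only, as did 9.01% of all genes there, and Fosl2 under anti-VEGF only, where 6.44% of all genes passed. Fos did not pass in any comparison. FOSB is a strong activator of AP-1 targets. Fosb had log2 values of 11.95, 11.85 and 11.93 in metastasis anti-VEGF arrays, 11.69, 11.65 and 12.01 in metastasis IgG arrays, and 12.18, 12.20 and 12.26 in healthy arrays. All 6 metastasis arrays lay below all 3 healthy arrays, and metastasis IgG replicate 3 stood above the other 5 metastasis arrays. The change was -0.43 ± 0.11 (SE, n = 3 each) in metastasis IgG minus healthy ECs, with an adjusted p of 0.0432 by limma, and -0.30 ± 0.08 in metastasis anti-VEGF minus healthy ECs. Without metastasis IgG replicate 3 the first change was -0.54 (adjusted p = 0.0108), and without any other single array the call was lost, with adjusted p-values of 0.0975 to 0.132 and changes of -0.45 to -0.37. The 2 metastasis groups differed by 0.13 (95% interval -0.13 to 0.38, adjusted p = 0.825), so a difference of the metastasis change between IgG and anti-VEGF was not detected.

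FOSL2, also called FRA2, lacks the strong activation domain of FOS and is induced later and longer. Its main probe set had values of 12.06, 12.31 and 12.24 in metastasis anti-VEGF arrays, 12.10, 12.15 and 12.02 in metastasis IgG arrays, and 11.70, 11.87 and 11.81 in healthy arrays. Every metastasis array was above every healthy array. The 2 metastasis groups differed by 0.11 (95% interval -0.10 to 0.33, adjusted p = 0.817 by limma), so a difference between them was not detected. The change was 0.41 ± 0.09 in metastasis anti-VEGF minus healthy ECs (SE, n = 3 each, adjusted p = 0.0398 by limma) and 0.29 ± 0.08 in metastasis IgG minus healthy ECs (adjusted p = 0.0663). The first call held without metastasis anti-VEGF replicate 1 (adjusted p = 0.0271) and was lost without any other single array, with adjusted p-values of 0.0810 to 0.121 and changes of 0.35 to 0.44. The second probe set of Fosl2 had values of 10.25, 10.32 and 10.40 in metastasis anti-VEGF arrays, 10.36, 10.52 and 10.28 in metastasis IgG arrays, and 9.93, 10.27 and 10.20 in healthy arrays. Its changes were smaller, at 0.19 against healthy ECs under anti-VEGF (adjusted p = 0.379), where the arrays overlapped, and 0.26 under IgG (adjusted p = 0.240), and with both probe sets averaged the change under anti-VEGF was 0.30 (adjusted p = 0.0930).

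FOS is the rapidly induced and rapidly degraded partner of JUN. Fos had values of 13.39, 13.53 and 13.57 in metastasis anti-VEGF arrays, 13.43, 13.30 and 13.43 in metastasis IgG arrays, and 13.55, 13.40 and 13.47 in healthy arrays. The 3 groups overlapped. Its change was -0.09 (95% interval -0.28 to 0.10) in metastasis IgG minus healthy ECs, 0.03 (-0.17 to 0.22) in metastasis anti-VEGF minus healthy ECs and 0.11 (-0.09 to 0.32) between the metastasis groups.

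**Figure D2:**
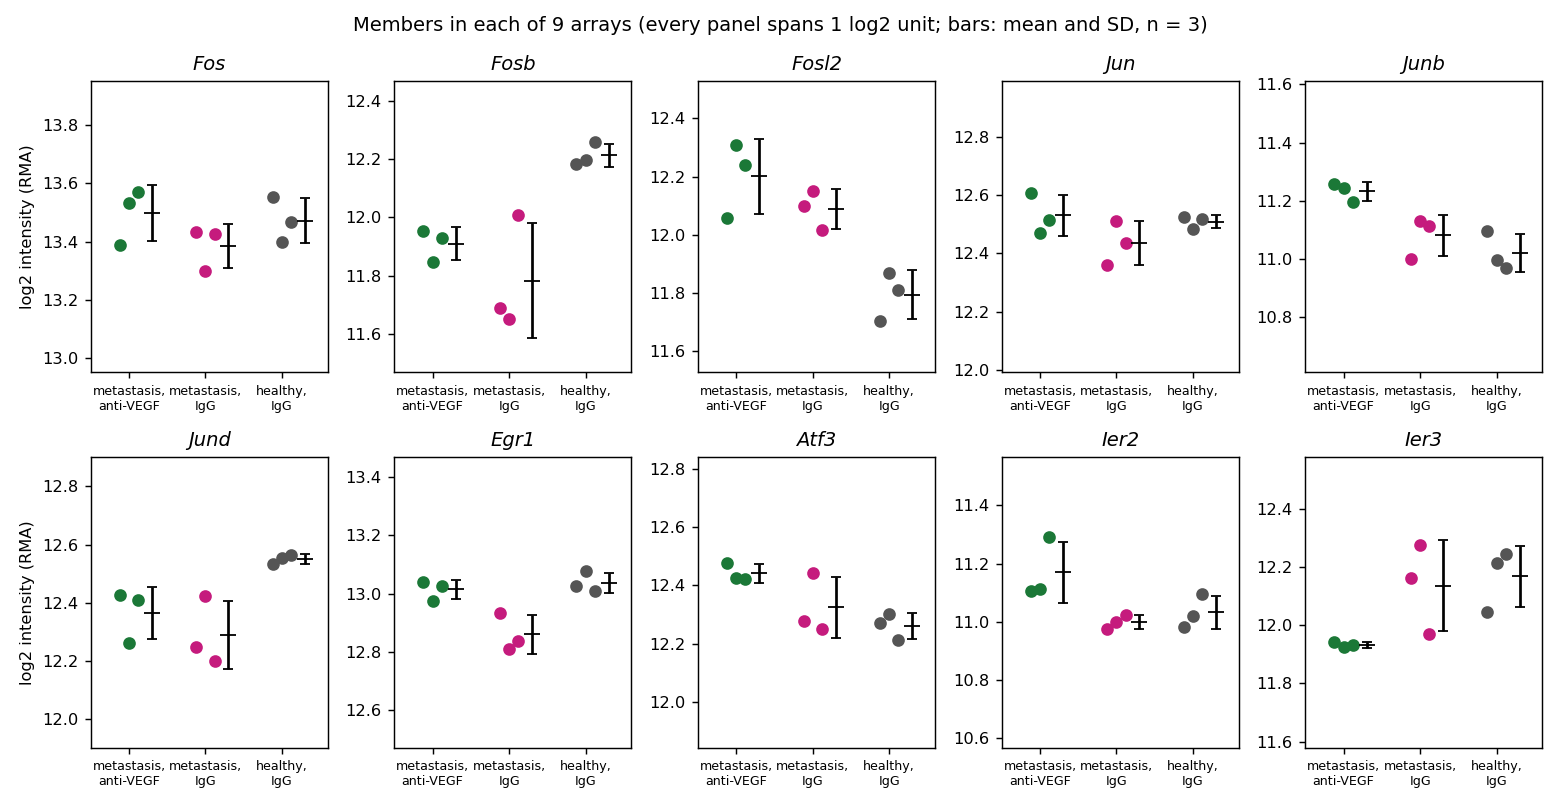
Log2 intensity (y axis, RMA) of the 10 genes in each of 9 arrays, with metastasis anti-VEGF, metastasis IgG and healthy IgG from left to right in each panel. Points are arrays, and the bars beside them are the mean and SD of 3. For Fosb all healthy arrays are at 12.18 or above and all metastasis arrays at 12.01 or below, while for Fosl2 all healthy arrays are at 11.87 or below and all metastasis arrays at 12.02 or above.

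In the JUN family, whose members can form AP-1 with themselves or with FOS proteins, 0 of 3 passed in any comparison. Of all genes, 9.01% passed in metastasis IgG minus healthy ECs, 6.44% in metastasis anti-VEGF minus healthy ECs and 0% between the metastasis groups. Jund was the member whose metastasis arrays all lay below its healthy arrays. JUND is the most constant member of the family and is linked to quiescence in several cell types. Jund had values of 12.43, 12.26 and 12.41 in metastasis anti-VEGF arrays, 12.25, 12.42 and 12.20 in metastasis IgG arrays, and 12.53, 12.55 and 12.56 in healthy arrays. All 6 metastasis arrays lay below the healthy ones. The change was -0.26 ± 0.08 in metastasis IgG minus healthy ECs (adjusted p = 0.105 by limma) and -0.19 ± 0.08 in metastasis anti-VEGF minus healthy ECs (adjusted p = 0.225). Its second, dimmer probe set, at 8.60 to 9.31, had changes of -0.19 and -0.22, and there the groups overlapped in both comparisons.

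JUN is the main transforming member, activated by JNK kinases. The main probe set of Jun had values of 12.61, 12.47 and 12.52 in metastasis anti-VEGF arrays, 12.36, 12.51 and 12.44 in metastasis IgG arrays, and 12.53, 12.48 and 12.52 in healthy arrays. The groups overlapped, and the 95% intervals of the changes were -0.25 to 0.10 in metastasis IgG minus healthy ECs and -0.15 to 0.20 in metastasis anti-VEGF minus healthy ECs. The second probe set had 12.47, 12.48 and 12.46 in metastasis anti-VEGF arrays, 12.42, 12.33 and 12.31 in metastasis IgG arrays, and 12.34, 12.35 and 12.44 in healthy arrays. There the anti-VEGF arrays were above all other 6, with a change of 0.12 against metastasis IgG (adjusted p = 0.814 over all probe sets) and 0.09 against healthy ECs (adjusted p = 0.597).

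JUNB is a weaker activator that can restrain JUN. Junb had values of 11.26, 11.24 and 11.20 in metastasis anti-VEGF arrays, 11.00, 11.13 and 11.11 in metastasis IgG arrays, and 11.10, 11.00 and 10.97 in healthy arrays. The anti-VEGF arrays were above the other 6, which overlapped with each other. The change was 0.21 ± 0.08 against healthy ECs (adjusted p = 0.154) and 0.15 ± 0.08 against metastasis IgG ECs (adjusted p = 0.714).

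Of the stress and growth factor regulators outside the FOS and JUN families, 0 of 2 (Egr1 and Atf3) passed in any comparison. The shares of all genes were 9.01% in metastasis IgG minus healthy ECs, 6.44% in metastasis anti-VEGF minus healthy ECs and 0% between the metastasis groups. The group means of Egr1 and Atf3 stood in different orders. EGR1 is a zinc finger factor induced by growth factors and shear stress. Egr1 had values of 13.04, 12.98 and 13.03 in metastasis anti-VEGF arrays, 12.93, 12.81 and 12.84 in metastasis IgG arrays, and 13.02, 13.08 and 13.01 in healthy arrays. The 3 metastasis IgG arrays were below the other 6, which overlapped. The change was -0.18 ± 0.08 in metastasis IgG minus healthy ECs (adjusted p = 0.207 by limma), 0.15 ± 0.08 in metastasis anti-VEGF minus metastasis IgG ECs (adjusted p = 0.699) and -0.02 in metastasis anti-VEGF minus healthy ECs (95% interval -0.19 to 0.14).

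ATF3 is a stress-induced member of the ATF family that represses as a dimer with itself and pairs with JUN proteins. Atf3 had values of 12.48, 12.42 and 12.42 in metastasis anti-VEGF arrays, 12.28, 12.44 and 12.25 in metastasis IgG arrays, and 12.27, 12.30 and 12.21 in healthy arrays. The anti-VEGF arrays were above the healthy ones, and metastasis IgG arrays overlapped with both. The change was 0.18 ± 0.07 in metastasis anti-VEGF minus healthy ECs (adjusted p = 0.204) and 0.06 in metastasis IgG minus healthy ECs (95% interval -0.13 to 0.26).

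IER2 is a small nuclear protein of the serum response, and IER3 is a stress-induced regulator of cell survival. Ier2 had values of 11.11, 11.11 and 11.29 in metastasis anti-VEGF arrays, 10.97, 11.00 and 11.02 in metastasis IgG arrays, and 10.98, 11.02 and 11.10 in healthy arrays. The anti-VEGF arrays were above all others, by 0.17 ± 0.09 on average over metastasis IgG (adjusted p = 0.678) and 0.14 ± 0.08 over healthy ECs (adjusted p = 0.409). Ier3 had values of 11.94, 11.92 and 11.93 in metastasis anti-VEGF arrays, 12.16, 12.28 and 11.97 in metastasis IgG arrays, and 12.05, 12.21 and 12.24 in healthy arrays. All 3 anti-VEGF arrays were below all other 6, and Ier3 was the 1 member with its lowest group mean under anti-VEGF. The change was -0.20 ± 0.10 against metastasis IgG ECs (adjusted p = 0.656) and -0.24 ± 0.08 against healthy ECs (adjusted p = 0.145).

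The order of the group means was set beside that of all genes. The metastasis anti-VEGF group had the highest mean for 6 members (Fos, Fosl2, Jun, Junb, Atf3 and Ier2), as for 27.8% of all genes, and the metastasis IgG group had it for 0 members, as for 33.3% of all genes. The metastasis IgG group had the lowest mean for 6 members (Fos, Fosb, Jun, Jund, Egr1 and Ier2), as for 31.8% of all genes. Averaged over the 10 members after scaling each gene to its own mean and SD over the 9 arrays, the score was 0.42, 0.19 and 0.60 in metastasis anti-VEGF arrays, -0.66, -0.20 and -0.60 in metastasis IgG arrays, and 0.06, 0.07 and 0.12 in healthy arrays. The anti-VEGF arrays were highest and the metastasis IgG arrays lowest, without overlap of the 3 groups, in a score built from changes of which 0 of 10 passed between the metastasis groups.

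The 5 other genes of 18182 whose values ran most like this score over the 9 arrays were Nab2 (Pearson's r of 0.978), Meioc (0.958), Tlnrd1 (0.941), Kif24 (0.935) and Atat1 (0.924). The arrays come from 3 groups, and the genes were picked as the highest of many, so the coefficients only describe likeness. NAB2 is a corepressor that binds EGR1. Nab2 had values of 9.84, 9.85 and 9.96 in metastasis anti-VEGF arrays, 9.47, 9.70 and 9.48 in metastasis IgG arrays, and 9.80, 9.75 and 9.83 in healthy arrays. As for Egr1, its 3 metastasis IgG arrays were below the other 6. The same held for Meioc, Tlnrd1, Kif24 and Atat1. All 5 genes were picked by a score that includes Egr1 and was lowest in these 3 arrays, so this order was largely built in. Meioc was at 5.84 to 6.40, near the lowest value of all arrays (5.38). Of the 45 pairs of members, taken as single genes, 24 had a coefficient above 0 over the 9 arrays (median 0.03) and 21 had one after the group means were removed (median -0.04).

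The SD within groups was between 0.0472 (Egr1) and 0.120 (Fosb) log2 units. All members had a mean of at least 11, and the median SD of the 3265 genes with such a mean was 0.0822, with Fos, Jund, Fosl2, Ier3 and Fosb above it and Egr1, Junb, Jun, Atf3 and Ier2 below it. Over all genes, dim ones included, the median was 0.128. Over all 9 arrays the values of a member spanned between 0.247 (Jun) and 0.608 (Fosb) log2 units, against a median of 0.321 over the genes with a mean of at least 11 and of 0.446 over all genes. Fosb, Fosl2, Jund and Ier3 spanned more than the first of these medians.

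**Figure D3:**
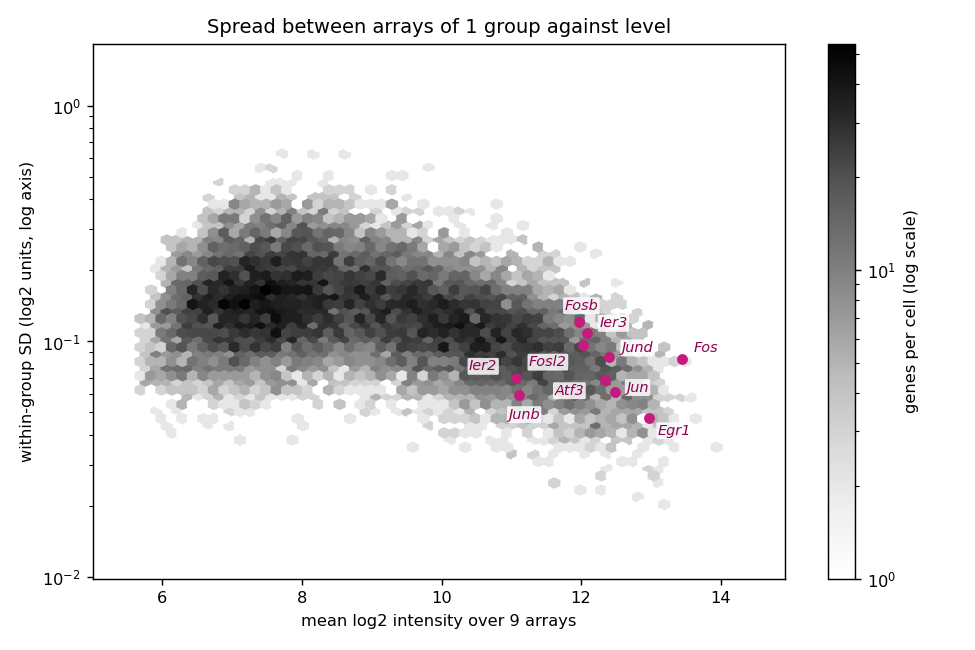
SD between arrays of 1 group (y axis, log2 units, log axis) against the mean log2 intensity over 9 arrays (x axis), with the density of all genes in grey (log scale) and the 10 members as points. The members run from Egr1 at 0.0472 to Fosb at 0.120, on both sides of 0.0822, the median SD of genes with a mean of at least 11.

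Around the members, the rest of the pathway was described by lists. Counts of these lists and of the cell markers below stand beside the shares of all genes that passed. Those were 9.01% in metastasis IgG minus healthy ECs, 6.44% in metastasis anti-VEGF minus healthy ECs and 0% between the metastasis groups. The remaining AP-1 subunits (Fosl1, Batf, Batf2, Batf3, Jdp2, Atf2 and Atf7) had 0 of 7 that passed in each comparison, with median changes of -0.13 in metastasis IgG minus healthy ECs, -0.03 in metastasis anti-VEGF minus healthy ECs and -0.05 between the metastasis groups. The smallest p of the first comparison was that of Jdp2, a repressor that dimerizes with JUN, at -0.26 ± 0.11 (adjusted p = 0.187). Of 28 other immediate early genes, 2 rose and 0 fell in metastasis IgG relative to healthy ECs, and the median was -0.02. They were Myc, a regulator of growth, and Dusp2, a phosphatase of MAP kinases, and the same 2 passed as higher in metastasis anti-VEGF relative to healthy ECs. Between the metastasis groups 0 of 28 passed, and the median was 0.08. The linear signal summed over the 28 genes was 133638 to 136927 in metastasis anti-VEGF arrays and 126605 to 129756 in metastasis IgG arrays, without overlap. In healthy arrays it was 125155 to 135126, which overlapped with both.

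Myc had values of 10.24, 10.68 and 10.53 in metastasis anti-VEGF arrays, 10.52, 10.37 and 10.17 in metastasis IgG arrays, and 8.48, 8.30 and 8.40 in healthy arrays. The metastasis arrays were all above the healthy ones, with changes of 1.96 ± 0.11 under IgG (adjusted p = 5.12e-05) and 2.09 ± 0.12 under anti-VEGF (adjusted p = 5.09e-05). Dusp2 had changes of 0.84 ± 0.09 (adjusted p = 0.00112) and 0.80 ± 0.18 (adjusted p = 0.0398). The remaining 26 genes, among them Egr2, Egr3, Nr4a1, Dusp1, Zfp36 and Klf4, did not pass, and had changes down to -0.64 under IgG and -0.50 under anti-VEGF.

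The kinases and factors that feed AP-1, such as ERK, JNK and p38 kinases, SRF, ELK factors and CREB1, had 0 of 14 measured genes that passed in each comparison, with a median change of -0.02 in metastasis IgG minus healthy ECs, -0.0049 in metastasis anti-VEGF minus healthy ECs and 0.03 between the metastasis groups. Rps6ka3, an ERK-activated kinase, had the smallest p in both comparisons with healthy ECs, at 0.27 ± 0.09 under IgG (adjusted p = 0.104) and 0.26 ± 0.09 under anti-VEGF (adjusted p = 0.120). A further list held feedback inhibitors of MAP kinase signaling. In metastasis IgG relative to healthy ECs 3 of 10 rose and 1 fell, with Spry1 at 0.69 ± 0.13 (adjusted p = 0.0145), Spry4 at 0.50 ± 0.07 (adjusted p = 0.00449), Dusp6 at 0.37 ± 0.07 (adjusted p = 0.0199) and Spry2 at -0.50 ± 0.12 (adjusted p = 0.0389). Spry1, Spry4 and Dusp6 also rose in metastasis anti-VEGF relative to healthy ECs.

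Dusp4, a nuclear phosphatase of ERK and JNK, had values of 9.58, 10.01 and 9.68 in metastasis anti-VEGF arrays, 10.57, 10.43 and 10.92 in metastasis IgG arrays, and 10.91, 10.47 and 10.80 in healthy arrays. The anti-VEGF arrays were below all others. It fell by 0.97 ± 0.15 against healthy ECs (adjusted p = 0.00751), while its difference of -0.88 ± 0.15 from metastasis IgG ECs did not pass (adjusted p = 0.308).

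Genes described as AP-1 targets in other settings, a list of proteases, cytokines and clotting regulators, had 3 of 13 higher and 0 lower in each comparison with healthy ECs. In metastasis IgG ECs the neutrophil chemokine Cxcl1 (1.07 ± 0.14, adjusted p = 0.00265), the cytokine Il6 (0.80 ± 0.19, adjusted p = 0.0371) and the protease inhibitor Timp1 (0.78 ± 0.10, adjusted p = 0.00281) rose. In metastasis anti-VEGF ECs Cxcl1 (1.05 ± 0.11, adjusted p = 0.00159), Timp1 (0.82 ± 0.10, adjusted p = 0.00237) and Mmp9, a gelatinase (0.44 ± 0.09, adjusted p = 0.0216), rose, the last by its main probe set, while the other Mmp9 probe set had a change of 0.12. Il6 had a change of 0.91 ± 0.24 there and did not pass (adjusted p = 0.0615 by limma). Group means of Il6 ran from 7.41 (healthy) to 8.32 (anti-VEGF) and those of Mmp9 from 7.58 to 8.02, near or below the array medians of 8.31. The median of the list was 0.29 in both comparisons and -0.0024 between the metastasis groups, where 0 of 13 passed. Macrophages and stromal cells are known to express these genes too, and markers of both rose in the same comparisons. The part of those cells in the list was not tested.

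Heat shock genes, which are known to be induced by warm enzymatic digestion along with immediate early genes, were taken as a further list. In metastasis IgG relative to healthy ECs 1 of 11 rose (Hspe1, a mitochondrial chaperonin, 0.50 ± 0.09, adjusted p = 0.0109) and 1 fell (Dnajb4, a cochaperone, -0.50 ± 0.12, adjusted p = 0.0391), with a median of -0.01, and the other probe set of Hspe1 changed by 0.04. In metastasis anti-VEGF relative to healthy ECs Hspe1 was the 1 of 11 that passed (0.44 ± 0.10, adjusted p = 0.0419), its other probe set had a change of -0.19, and the median was 0.05. Between the metastasis groups 0 of 11 passed, and the median was 0.04. The linear signal summed over the 11 genes was 44972 to 50473 in metastasis anti-VEGF arrays, 45379 to 46117 in metastasis IgG arrays and 45304 to 45945 in healthy arrays, and these ranges overlapped. What part the digestion had in the level of the members was not tested.

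**Figure D4:**
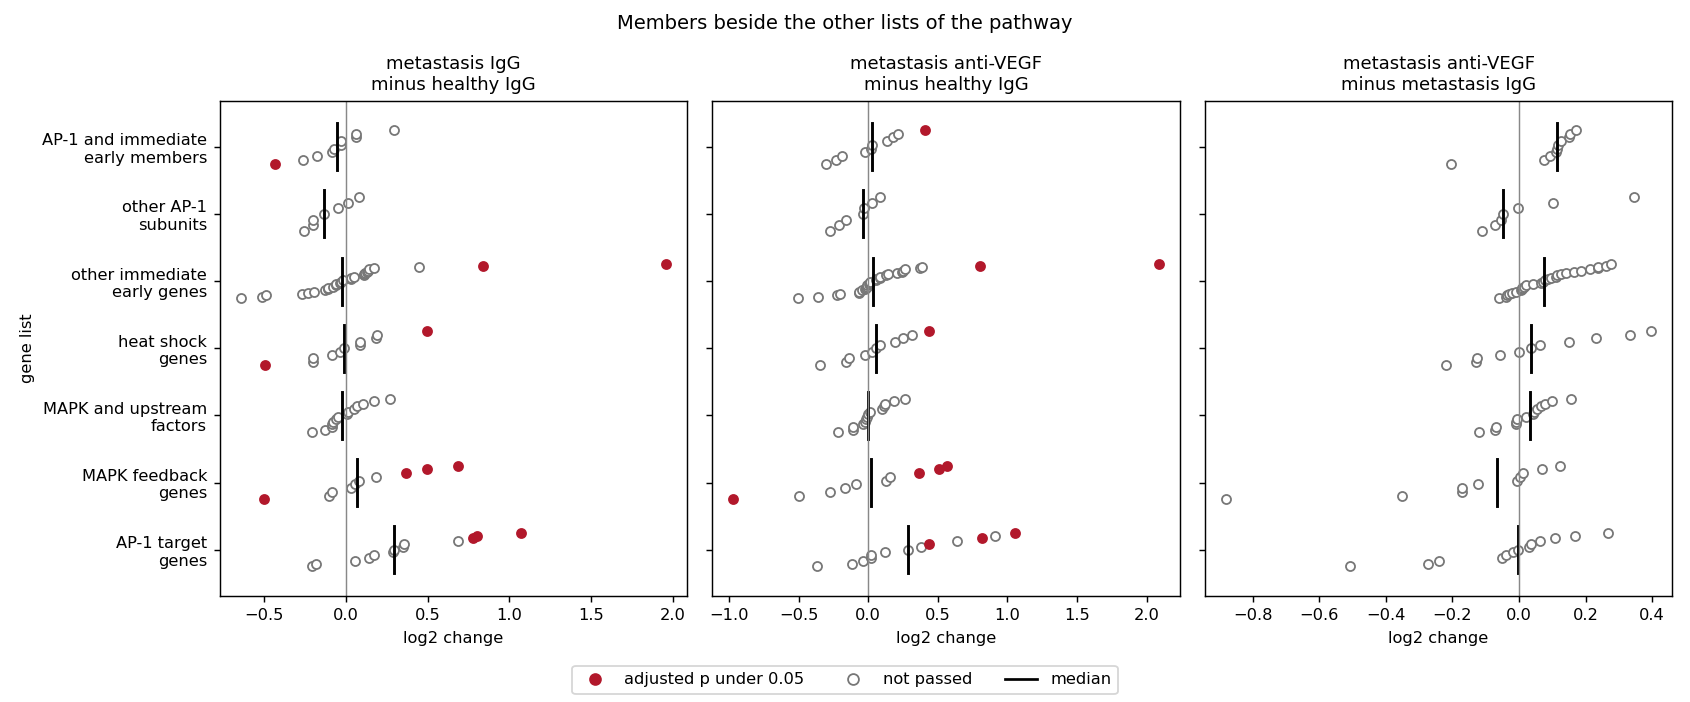
Log2 change (x axis) of each gene of 7 lists (rows) in the 3 comparisons (panels), with filled symbols for an adjusted p under 0.05, open symbols for the others and a bar at the median of each list. The medians of the 10 members are -0.05, 0.02 and 0.12, and the x axes differ between panels. Myc lies apart from the other immediate early genes at 1.96 and 2.09 in the comparisons with healthy ECs.

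The summed signal of 10 endothelial markers was 71451 to 73845 in metastasis anti-VEGF arrays, 70532 to 73492 in metastasis IgG arrays and 71657 to 74110 in healthy arrays, and these ranges overlapped. Of these markers Emcn rose relative to healthy ECs under IgG (0.43 ± 0.10, adjusted p = 0.0393) and under anti-VEGF (0.50 ± 0.09, adjusted p = 0.0167), and Eng fell under anti-VEGF (-0.38 ± 0.08, adjusted p = 0.0348). Of 12 macrophage and monocyte markers 8 rose and 0 fell in metastasis IgG relative to healthy ECs (median 0.69), and their summed signal was 13224 to 18118 in metastasis anti-VEGF arrays, 14175 to 16080 in metastasis IgG arrays and 5277 to 8772 in healthy arrays. In the same comparison 5 of 8 fibroblast and pericyte markers, 2 of 8 epithelial and 1 of 4 neutrophil markers rose, and 0 of each fell. In metastasis anti-VEGF relative to healthy ECs the counts of markers that rose were 7 of 12 for macrophages, 4 of 4 for neutrophils, 4 of 8 for fibroblasts and pericytes and 0 of 8 for epithelial cells. The part of these cells in the changes of Fosb and Fosl2 was not tested. Between the metastasis groups 0 markers of any of these lists passed.

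The 3′ minus 5′ difference of the actin control probe sets was 0.526 to 0.620 log2 units in metastasis anti-VEGF arrays, 0.488 to 0.555 in metastasis IgG arrays and 0.609 to 0.620 in healthy arrays, so that metastasis IgG arrays lay below healthy ones without overlap. For Gapdh the difference was 0.0601 to 0.194 in metastasis anti-VEGF arrays, -0.0338 to 0.0995 in metastasis IgG arrays and 0.0969 to 0.176 in healthy arrays, and these ranges overlapped. The part of this difference in the lower Fosb, Egr1 and member score of metastasis IgG arrays was not tested.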

How the data were processed

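Total RNA of sorted mouse lung ECs was labeled from 1 ng with a 3′ kit and hybridized to Affymetrix Mouse Genome 430 2.0 arrays. The deposited log2 values were RMA-normalized by the authors in Chipster and were used as they are; summed signals are sums of values taken back to the linear scale. Probe sets with no gene name here (9211 of 45101), with several genes (932) and controls (64) were left out, and 34945 probe sets of 18193 genes remained. A gene was represented by its probe set of highest mean. The gene IDs of 34741 were in the RefSeq table, with 0 symbols changed. The 3 comparisons were fitted separately (lmFit and eBayes of limma 3.58.1, R 4.3.3) on 6 arrays each, with calls at an adjusted p under 0.05, two-sided, and no filter on dim genes. The labels call the replicates biological without naming the animals, so p-values measure the spread between these arrays, which may be technical in part. The number of arrays limits the precision. Of columns with values, 0 were left out.

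The text names all 10 members and the 5 genes most like the members. Of each other list it names up to 4 genes with the largest change among those that passed. Where 0 passed, it names up to 2 of smallest p. Genes given as examples that did not pass and Nab2's values were picked with values known. So were the Il6 change under anti-VEGF and the Dusp4 difference between metastasis groups. Members and lists were chosen with earlier results of these data known. The fits were tested on simulated data. Alternatives were all 9 arrays in 1 fit, a replicate block, filters at a mean of 6 and of 9, array weights, centring, trend and robust settings, a further quantile normalization, thresholds the study gives for a gene list, other probe set rules and each array left out; the filter at 9 was chosen after seeing the data. Sequences are RefSeq's. Figures were drawn with matplotlib 3.10.9.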

Additional observations from a re-analysis of the deposited data

Results flagged for a closer look

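Ier2 stood out because the metastasis groups deviated from the healthy mean in opposite directions in all their arrays. The 3 metastasis anti-VEGF arrays (11.11, 11.11 and 11.29) lay above the healthy mean of 11.03 and the 3 metastasis IgG arrays (10.97, 11.00 and 11.02) below it. The difference of the metastasis groups was 0.17 ± 0.09 (SE, n = 3 each) log2 units, and its own test did not pass (adjusted p = 0.678 by limma). The healthy arrays (10.98, 11.02 and 11.10) overlapped with the metastasis IgG arrays.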

How the results depend on the processing

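In metastasis IgG minus healthy ECs, where Fosb was the 1 member that passed, 0 members passed with a replicate block and at the thresholds of the study (absolute change over 0.75, p under 0.05, adjusted p under 0.25), 4 with trend and robust settings (Fosb, Fosl2, Jund and Egr1) and 3 with the filter at a mean of 9, which tests fewer genes (Fosb, Fosl2 and Jund). The count was 0 to 1 with each array left out. Among probe sets, 0 passed at first, 1 with all 9 arrays in a fit, 1 with array weights, 4 with trend and robust settings, 2 with the filter at 9, and 0 to 1 with each array left out. In metastasis anti-VEGF minus healthy ECs, where Fosl2 was the 1 that passed, the member count was 4 with trend and robust settings (Fosb, Fosl2, Atf3 and Ier3), 2 with array weights and 2 with the filter at 9 (Fosb and Fosl2), 0 at the thresholds of the study and 0 to 1 with each array left out. With all probe sets of each gene averaged it stayed at 1, but Fosb passed (adjusted p = 0.0351) in place of Fosl2. Among probe sets the count was 1 at first, 0 with the replicate block, 4 with trend and robust settings, 0 at the thresholds of the study, 2 with the filter at 9 and 0 to 1 with each array left out. Between the metastasis groups 0 members and 0 genes passed under every alternative run. Signs turned for changes near 0 that did not pass. In metastasis IgG minus healthy ECs Ier3 was -0.10 to 0.052 with each array left out, at 0.0062 without healthy replicate 3 and 0.052 without metastasis IgG replicate 3. In metastasis anti-VEGF minus healthy ECs Fos was -0.012 to 0.080, at -0.012 without healthy replicate 2 and -0.011 without anti-VEGF replicate 3, and Jun was -0.017 to 0.053, at -0.017 without anti-VEGF replicate 1. The causes were not tested. Ier3 has no value without probe sets of shared suffix.

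Over all genes, 1640 passed in metastasis IgG minus healthy ECs, against 507 at the thresholds of the study and 869 to 1478 with each array left out. In metastasis anti-VEGF minus healthy ECs 1172 passed, against 1848 with trend and robust settings, 430 at the thresholds of the study and 645 to 1139 with each array left out. The labels link samples of different groups by replicate number only. Deviations from the group means correlated at -0.076 to 0.014 between samples of the same number. With 3 arrays per group this cannot settle whether samples were paired. With replicate number as a block, 1176 and 841 genes passed in the comparisons with healthy ECs. The adjusted p by limma was then 0.0544 for Fosb and 0.0480 for Fosl2.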
